A study of Mus musculus with 2 samples.

Results

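The small leucine-rich proteoglycans are secreted matrix proteins, and 8 of their genes were followed in the embryonic mouse heart: decorin (Dcn), biglycan (Bgn), lumican (Lum), fibromodulin (Fmod), osteoglycin (Ogn), asporin (Aspn), Prelp and osteomodulin (Omd). They were taken by gene symbol, and each matched a single row among the 43346 gene rows of both expression tables. The libraries were total RNA-seq of E14.5 hearts, that is hearts of mouse embryos at embryonic day 14.5, from the B6NCrl strain, a C57BL/6 substrain. There were 2 libraries in 1 group, replicate 1 collected on July day 15 and replicate 2 on July day 17, each made from 10 ng of RNA of a single whole heart with added spike-in RNAs. No allele, treatment or second tissue is given for either heart. The labels describe each sample as a single heart and also give its sex as a pool of male and female, and collection day and embryo cannot be told apart.

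A small leucine-rich proteoglycan has a core of leucine-rich repeats behind a short amino-terminal stretch that holds a cluster of 4 cysteines, and many members carry chondroitin, dermatan or keratan sulfate chains on the core. In connective tissue these proteins sit on collagen fibrils, where they limit or guide the fusion of fibrils and the cross-linking between them, and several bind growth factors of the TGF-beta family. In the heart they are known from the valves, the outer layers of vessels and the interstitial matrix made by fibroblasts.

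The family is divided into classes by the spacing of the 4 cysteines, and the coding DNA of that cluster is shown for all 8 genes because it is the sequence feature that groups them. The sequences were read from the GENCODE M21 transcripts (GRCm38), 5′ to 3′ on the coding strand, from 1 codon before the first cysteine codon to 1 codon after the last, with the cysteine codons in capitals. Dcn, Bgn and Aspn, of class I, have 3, 1 and 6 residues between successive cysteines.
Dcn: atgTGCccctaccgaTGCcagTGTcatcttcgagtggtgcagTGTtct
Bgn: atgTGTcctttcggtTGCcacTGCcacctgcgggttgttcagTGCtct
Aspn: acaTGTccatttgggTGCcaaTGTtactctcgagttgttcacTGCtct

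Lum, Fmod, Prelp and Omd, of class II, have 3, 1 and 9 residues between successive cysteines.
Lum: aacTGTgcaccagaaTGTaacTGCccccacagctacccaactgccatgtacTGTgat
Fmod: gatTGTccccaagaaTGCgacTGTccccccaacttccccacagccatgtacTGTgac
Prelp: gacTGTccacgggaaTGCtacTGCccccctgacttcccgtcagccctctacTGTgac
Omd: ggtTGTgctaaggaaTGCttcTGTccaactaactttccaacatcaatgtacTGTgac

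Ogn, of class III, has 2, 1 and 6 residues between successive cysteines.
Ogn: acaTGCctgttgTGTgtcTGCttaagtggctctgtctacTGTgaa

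Each stretch lies within a single exon. That of Dcn is chr10:97483504-97483551 on the plus strand in exon 2, and that of Lum is chr10:97568350-97568406 on the plus strand in exon 2. The Bgn stretch is chrX:73490976-73491023 on the plus strand in exon 2. On chromosome 13, all on the plus strand, lie the stretches of Aspn at chr13:49551862-49551909 in exon 2, of Omd at chr13:49589656-49589712 in exon 2 and of Ogn at chr13:49615563-49615607 in exon 4. On chromosome 1 lie the stretch of Fmod at chr1:134040446-134040502 on the plus strand and that of Prelp at chr1:133915148-133915204 on the minus strand, both in exon 2.

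The translated coding sequences had between 298 residues (Ogn) and 423 residues (Omd). Amino acid identity over aligned residues was 56.9% for Dcn and Bgn, 53.3% for Bgn and Aspn and 50.9% for Dcn and Aspn. Within class II it was 47.5% for Lum and Fmod, 42.6% for Fmod and Prelp and 41.1% for Prelp and Omd. The lowest identity of the 28 pairs was 28.3%, between Dcn and Omd. The stretch before the cysteine cluster, signal peptide included, differed in the features for which these proteins are named. A serine followed by glycine, the pair found at the core of a chain attachment site, occurred 1 time in Dcn, 2 times in Bgn and 1 time in Lum, and 0 times in the other members. The count does not separate pairs in the signal peptide from pairs in the mature protein, so it does not show that a pair carries a chain. The keratan sulfate chains of class II sit on asparagines of the repeats instead. Fmod had 11 tyrosines and Omd 8 there, the residues that are sulfated in both proteins. Aspn had 11 aspartates, with a longest run of 4, the stretch that gives asporin its name. Prelp had 20 prolines, the most of the 8, in the stretch behind the name proline- and arginine-rich end leucine-rich repeat protein. It had 9 basic residues there, as many as Ogn. Lysines and arginines were counted together, so this does not show a wealth of arginine.

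The libraries held 2.85e+07 expected counts in replicate 1 and 2.90e+07 in replicate 2, of which 3.74% and 3.55% fell on spike-ins. An expected count is an estimated number of reads for a gene that need not be whole, and TPM is that count divided by effective length and scaled to the same fixed total over all rows of a library. A gene was called detected at 1 TPM or more in both libraries, which 13635 genes reached. The hearts expressed their defining muscle genes (10 of 10 detected, Actc1 at 11908 ± 426 TPM) and all 12 of a list of fibroblast genes. Of a list of 15 cartilage and bone genes 5 were detected, at means of up to 8.99 TPM (Col2a1), and 2, Matn1 and Bglap, had 0 counts in both libraries. In bulk RNA, fewer cells of a type and less RNA per cell cannot be told apart. With 1 library per embryo no test between hearts exists, so no p-value is given.

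Of the 8 genes, 7 were detected, and the levels spanned from 197 ± 19.6 TPM for Dcn to 0.245 ± 0.163 TPM for Omd (SD, n = 2, as for every mean below). Dcn, Lum and Bgn held 87.3% of the summed TPM of the 8 genes in replicate 1 and 87.7% in replicate 2. Ogn, Aspn and Fmod together held 12.2% in replicate 1 and 11.9% in replicate 2. By class, Dcn, Bgn and Aspn held 67.8% and 66.5%, the 4 class II genes 26.6% and 27.2%, and Ogn, the class III gene, 5.63% and 6.23%, replicate 1 before replicate 2. The sum over all 8 genes came to 423 TPM in replicate 1, against 493 TPM in replicate 2. In counts this was 17880 in replicate 1, or 0.0651% of the counts on genes (95% Wilson interval 0.0641% to 0.0661%), and 20713 in replicate 2, or 0.0742% (0.0732% to 0.0752%). These intervals cover counting error only, not the spread between hearts or libraries. Reads copied by PCR are not independent molecules, so even the counting error may be understated.

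**Figure D1:**
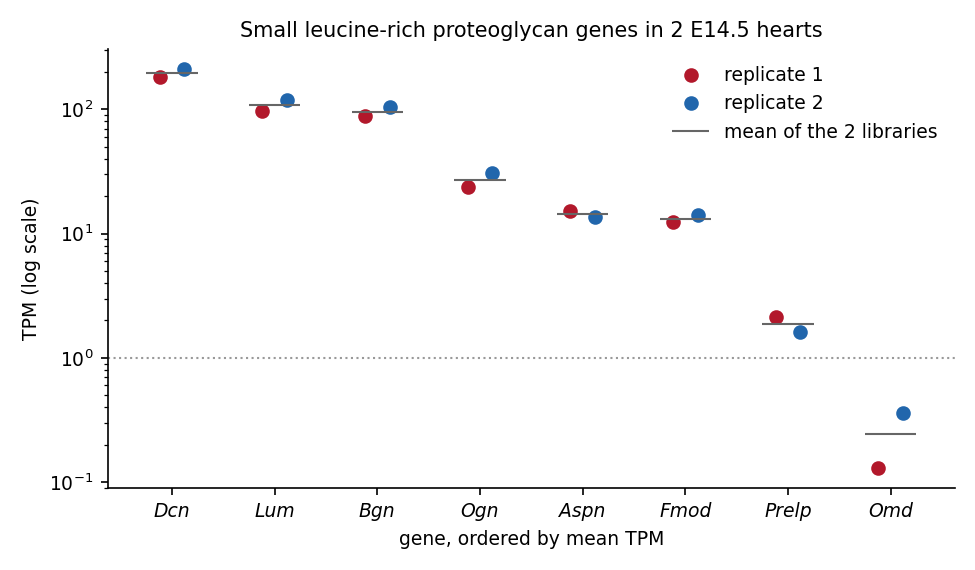
TPM on a log axis (y) of the 8 genes (x, ordered by mean), with replicate 1 as the left point, replicate 2 as the right point and a line at their mean; the dotted line marks 1 TPM. Dcn stands highest at 183 and 211 TPM, Lum and Bgn overlap, Aspn and Fmod overlap, and Omd is the only gene below the dotted line in either library.

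Decorin, the class I proteoglycan with a single chondroitin or dermatan sulfate chain that limits the sideways growth of collagen fibrils, was the most abundant. Dcn (ENSMUSG00000019929, chromosome 10 from 97479609 to 97518143, plus strand) had 183 TPM in replicate 1, against 211 TPM in replicate 2, from 6838 and 7917 counts. In the whole transcriptome 682 genes had a higher mean TPM, and 94.99% of the detected genes lay below it. The TPM posterior mean of the deposited tables was 178 in replicate 1 and 205 in replicate 2, and the deposited credibility interval (174 to 182 and 200 to 210) lay just below the deposited TPM in both.

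Biglycan, the closest relative of decorin, carries a pair of such chains and is known as a ligand of Toll-like receptors once it is freed from the matrix. Bgn, on the X chromosome from 73483602 to 73495933 (plus strand), had 88.2 TPM in replicate 1, against 104 TPM in replicate 2, from 4120 and 4638 counts. Within each library Dcn exceeded Bgn by a log2 ratio of 1.05 in replicate 1 and 1.02 in replicate 2. That ratio (1.04 ± 0.02) varied the least of the 8 ratios between members that were computed.

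Asporin, which binds the same site on collagen as decorin but has no glycosaminoglycan chain, was far below both. Aspn (chromosome 13 from 49544443 to 49567565, plus strand) had 15.3 TPM in replicate 1, against 13.7 TPM in replicate 2, from 719 and 647 counts. Its log2 ratio to Dcn was -3.58 in replicate 1 and -3.94 in replicate 2, and its SD over the libraries (0.26) was larger than that of Dcn to Bgn. Of all detected genes 50.7% lay below Aspn, which puts it near the middle of the heart transcriptome.

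Lumican, a class II protein best known for the transparency of the cornea, where it carries keratan sulfate, ranked below decorin only. Lum (chromosome 10 from 97565128 to 97572703, plus strand) had 97.8 TPM in replicate 1, against 118 TPM in replicate 2, from 4043 and 4913 counts. Lum lay above Bgn in both libraries, with a log2 ratio of 0.15 in replicate 1 and 0.19 in replicate 2, yet the TPM ranges of the 2 genes over the libraries overlapped. Dcn and Lum did not overlap, with a ratio of mean TPM of 1.82.

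Fibromodulin, which shares a collagen binding site with lumican and directs the cross-linking of fibrils in tendon, was well below lumican. Fmod (chromosome 1 from 134037254 to 134048277, plus strand) had 12.4 TPM in replicate 1, against 14.04 TPM in replicate 2, from 785 and 892 counts. The log2 ratio of Lum to Fmod was 2.98 in replicate 1 and 3.07 in replicate 2. Fmod and Aspn could not be ordered: Aspn was higher in replicate 1, by a log2 ratio of 0.30, and lower in replicate 2, by -0.04. Their mean TPM differed by a ratio of 1.10, and by counts without length scaling Fmod came before Aspn.

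Prelp, a class II protein whose basic end binds heparan sulfate, for instance of the basement membrane proteoglycan perlecan, was low but detected. Prelp (chromosome 1 from 133910304 to 133921414, minus strand) had 2.13 TPM in replicate 1, against 1.60 TPM in replicate 2, from 156.42 and 118 counts. Only 7.27% of the detected genes lay below it. It was the only member whose reads were partly shared with another row, with a posterior SD of 1.11 reads in replicate 1 and 0.63 reads in replicate 2. An annotated antisense gene, Gm15851, overlaps exons of Prelp over 350 nt and had 1.58 counts in replicate 1 and 0 in replicate 2. Whether the counting used strand is not given in the sources used here, so reads of the pair may not be told apart.

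Osteomodulin, also called osteoadherin, is a class II protein of mineralized tissue that binds hydroxyapatite, and it was the member not detected. Omd (chromosome 13 from 49582462 to 49592822, plus strand) had 4 counts in replicate 1 and 11 counts in replicate 2, or 0.13 and 0.36 TPM. The limit that a count of 0 would allow, 3 counts, corresponds to 0.0984 TPM in replicate 1, against 0.0979 TPM in replicate 2, so Omd lay close to the lowest level these libraries can show. Its deposited credibility intervals were 0.038 to 0.299 TPM in replicate 1 and 0.179 to 0.596 TPM in replicate 2, and they overlapped. The 5 detected cartilage and bone genes were Col2a1 (8.99 ± 2.35 TPM), Col9a2 (5.09 ± 0.06 TPM), Col9a1 (4.54 ± 1.15 TPM), Comp and Alpl, while the osteoblast factors Runx2 (0.18 TPM in replicate 1, against 0.27 TPM in replicate 2) and Sp7 (0.02 TPM in replicate 1, against 0.15 TPM in replicate 2) were not.

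Osteoglycin, or mimecan, is the class III member and is linked to left ventricular mass in rat and human. Ogn (chromosome 13 from 49608046 to 49624501, plus strand) had 23.8 TPM in replicate 1, against 30.7 TPM in replicate 2, from 1215 and 1577 counts. It was the fourth most abundant member, below Bgn by a ratio of mean TPM of 3.52 and above Aspn by a ratio of 1.88, and the TPM ranges did not overlap with either. The log2 ratio of Ogn to Aspn was 0.64 in replicate 1 and 1.16 in replicate 2.

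Over the whole order, 5 of the 7 pairs of neighbours had TPM ranges that did not overlap between genes. The exceptions were Lum with Bgn and Aspn with Fmod. The steps at the low end were the widest, with ratios of mean TPM of 7.09 between Fmod and Prelp and 7.61 between Prelp and Omd.

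Between the libraries, the more abundant members were lower in replicate 1, by small amounts. Differences are given as log2 of replicate 1 over replicate 2 on expected counts with TMM scaling (edgeR's trimmed mean, with a prior count of 0.5), with a 95% Clopper-Pearson interval for counting error only. Dcn had -0.16 (-0.20 to -0.11), Lum -0.23 (-0.29 to -0.17), Bgn -0.12 (-0.18 to -0.06) and Ogn -0.32 (-0.43 to -0.21). Their intervals all excluded no difference, and Fmod had -0.13 (-0.27 to 0.01), which did not. Aspn and Prelp stood the other way, with 0.21 (0.05 to 0.36) and 0.46 (0.10 to 0.81). Omd had -1.30 with an interval from -3.51 to 0.35, too wide to give a direction.

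Among the 7 members that averaged 100 counts or more, 0 were 1.5-fold apart between the libraries, against 1.95% of 11958 genes at that count. The interval lay below 0 for 4 of the 7 (Dcn, Lum, Bgn and Ogn), against 17.4% of all genes, and above 0 for 2 of the 7 (Aspn and Prelp), against 19.8%. Such calls depend on abundance, because intervals narrow as counts rise. The shares over all genes were not matched to the members by count. The median of the 7 was -0.13, beside 0.00 for all genes, whose central 95% ran from -0.46 to 0.36. Prelp, with the fewest counts of the 7, lay outside that range. The biological coefficient of variation, edgeR's estimate of the relative spread between libraries beyond counting error, was 8.83% over 15735 genes. At the abundance of Dcn, Bgn, Lum, Fmod, Aspn and Ogn the trend of that spread was between 6.41% and 7.99%, and at that of Prelp it was 15.2%. With scaling by the spike-in total every log2 difference of these 7 genes moved by -0.11. Then the interval of Aspn was -0.06 to 0.25 and that of Prelp -0.01 to 0.70, so neither excluded no difference, while Fmod's interval of -0.38 to -0.10 did.

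**Figure D2:**
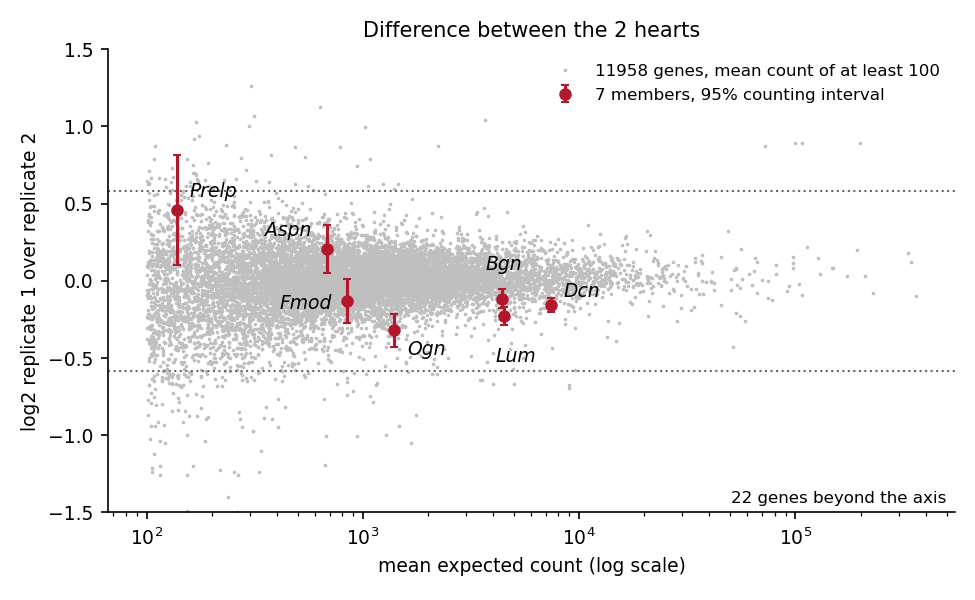
Log2 of replicate 1 over replicate 2 (y) against mean expected count on a log axis (x) for the 11958 genes that averaged 100 counts or more (grey) and the 7 members among them (red, bars are 95% counting intervals); dotted lines mark 1.5-fold and 22 genes lie beyond the axis. Dcn, Lum, Bgn and Ogn lie below 0 with their whole bars, Aspn and Prelp above it, and all 7 points lie between the dotted lines.

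Marker genes of cell types lay in either direction between the hearts. Among all genes that averaged 100 counts or more, 17.4% had an interval below 0 and 19.8% above it. Intervals narrow as counts rise, so abundant genes are called at smaller differences. Of 12 fibroblast genes, which include the collagens Col1a1, Col1a2 and Col3a1, 8 had an interval below 0 and 2 above it, with a median of -0.18. Pdgfra, a receptor that marks fibroblasts, had -0.22 (-0.31 to -0.13), with 13.8 TPM in replicate 1, against 16.5 TPM in replicate 2. The 2 above 0 were Postn at 0.07 (0.04 to 0.10) and Gsn at 0.11 (0.07 to 0.14). Of a red cell list 8 genes averaged 100 counts or more, and all 8 had an interval above 0, with a median of 0.90. The remaining 2 had fewer counts, Epor with 54 in replicate 1 and 118 in replicate 2 (log2 -1.07, -1.57 to -0.60) and Klf1 with 59 in replicate 1 and 41 in replicate 2 (0.57, -0.02 to 1.19). The red cell list summed to 60862 TPM in replicate 1, against 34544 TPM in replicate 2, a share of the fixed TPM total that is not open to the other genes on that scale. Of 10 macrophage genes at that count 5 had an interval above 0, with a median of 0.18. Of 9 epicardial genes 4 lay below 0 and 1 above it, with a median of -0.12. Of 10 heart muscle genes 7 lay above 0 and 2 below it, with a median of 0.13. Of 10 smooth muscle and mural genes 5 lay below 0 and 3 above it, with a median of 0.02. The lowest of these were Myh11 at -1.63 (-2.09 to -1.21) and Eln at -0.69 (-0.74 to -0.65). Of 11 valve and tendon genes 4 lay below 0 and 1 above it, and of 10 endothelial genes 3 lay below 0 and 4 above it. The part of these cells in the differences of the 8 genes was not tested.

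Most members were read as a single transcript. Lum, Ogn and Omd have 1 transcript in the tables, and for Fmod and Prelp the transcripts Fmod-201 and Prelp-201 took 100% in both libraries. Dcn-201 took 98.9% of Dcn TPM in replicate 1 and 100% in replicate 2. The second form, Dcn-202, had 72.98 counts in replicate 1 and 0 in replicate 2, against 6765 and 7917 for Dcn-201. Aspn-201 took 100% in replicate 1 and 93.9% in replicate 2, with 38.94 counts on Aspn-202 in replicate 2 alone. The forms are 1886 and 1794 nt long for Dcn and 2346 and 2329 nt for Aspn. How many reads the forms of a gene share was not measured, and such counts are estimates.

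Bgn had 8 transcripts. The full protein-coding form Bgn-201 took 94.8% of TPM in replicate 1 and 88.8% in replicate 2, or 98.5% and 97.0% of the counts. Most of the rest lay on Bgn-208, a processed transcript of 548 nt with no protein annotated, at 4.16% of TPM in replicate 1 and 8.87% in replicate 2. That came from 34.52 and 86.96 counts, which weigh more on the TPM scale because the transcript is short. The Bgn difference between the libraries was -0.24 as a ratio of TPM, against -0.12 on counts. Part of that shift was not particular to Bgn. Dcn had -0.20 as a ratio of TPM, against -0.16 on counts, and Lum -0.27, against -0.23.

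All members but Bgn lie near another leucine-rich proteoglycan gene, and the levels of such neighbours ranged from close to far apart. On chromosome 10, Dcn, Lum, keratocan (Kera) and epiphycan (Epyc) follow each other on the plus strand, with 47.0 kb between Dcn and Lum and 34.2 kb between Lum and Kera. Kera, a keratan sulfate proteoglycan of the cornea, had 0.18 TPM in replicate 1, against 0.05 TPM in replicate 2. Epyc, a class III protein of growth cartilage, had 0.22 TPM in replicate 1, against 0.96 TPM in replicate 2. Kera had only 7 counts in replicate 1 and 2 counts in replicate 2, beside 4043 and 4913 for its neighbour Lum. Dcn and Lum together gave 66.4% of the summed TPM of the 8 genes in replicate 1 and 66.7% in replicate 2.

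On chromosome 13, Ecm2, Aspn, Omd and Ogn lie in that order on the plus strand, inside the body of Cenpp, a centromere protein gene on the minus strand. Exons of Cenpp and Aspn overlap by 7 nt. Cenpp had 22.2 TPM in replicate 1, against 22.1 TPM in replicate 2. Omd lies between Aspn and Ogn, 14.9 kb from the end of Aspn and 15.2 kb from the start of Ogn. Its level was below both in each library, by log2 ratios of Aspn to Omd of 6.88 in replicate 1 and 5.25 in replicate 2, and of Ogn to Omd of 7.52 in replicate 1 and 6.41 in replicate 2.

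On chromosome 1, Prelp and opticin (Optc), a class III protein of the vitreous, lie 2.30 kb apart on the minus strand, and Fmod lies 116 kb away on the plus strand. Optc had 0.32 TPM in replicate 1, against 0.39 TPM in replicate 2, from 9 and 8 counts. Bgn, on the X chromosome, has no other member near it. Within 250 kb of the 8 genes lay 39 other protein-coding genes, of which 18 were detected and 6 had 0 counts in both libraries.

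**Figure D3:**
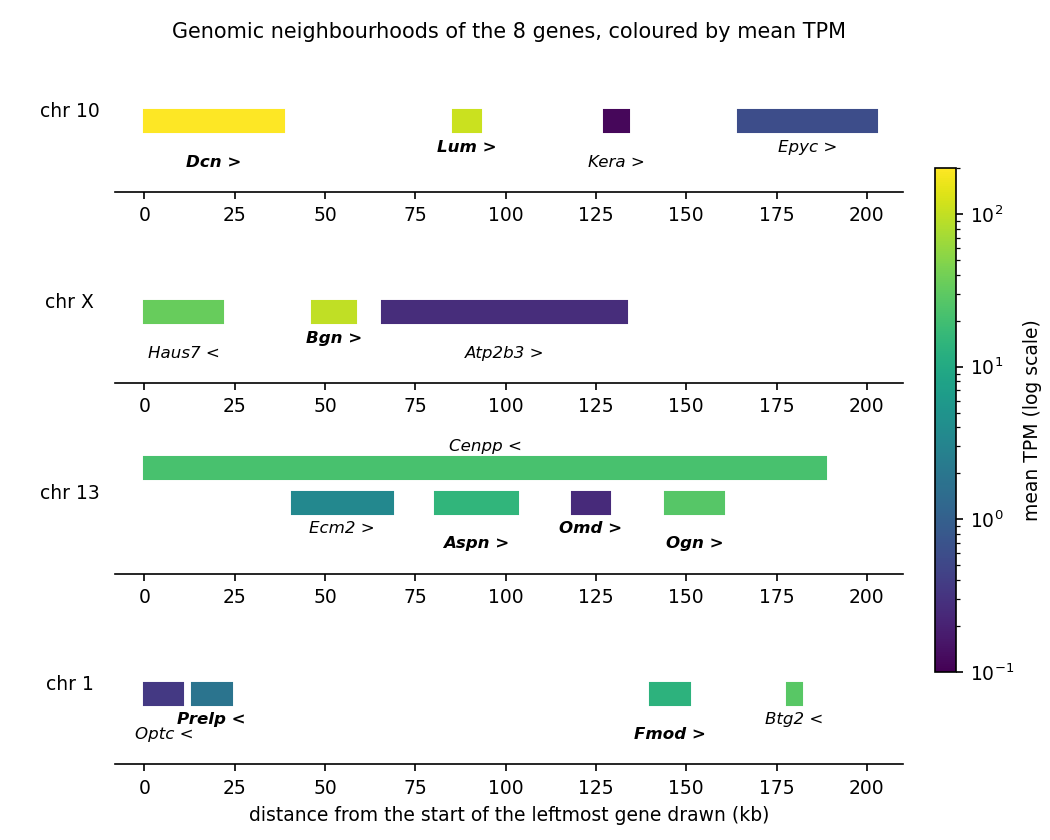
Genes of the 4 neighbourhoods drawn to scale by distance in kb from the leftmost gene (x), with members in bold, the arrow giving the strand and the colour the mean TPM on a log scale; only relatives and selected neighbours are drawn. Dcn and Lum at 197 and 108 TPM stand beside Kera and Epyc below 1 TPM, and Omd at 0.245 TPM lies between Aspn and Ogn at 14.5 and 27.3 TPM.

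Among 11 further leucine-rich proteoglycans and relatives, 2 were detected. Tsku, or tsukushi, a secreted inhibitor of BMP signalling, had 4.29 TPM in replicate 1, against 4.68 TPM in replicate 2. Ecm2 had 4.26 TPM in replicate 1, against 2.79 TPM in replicate 2, a log2 difference of 0.66 (0.40 to 0.92). The other 9 were Chadl at 0.61 and 0.92 TPM, Epyc, Podn at 0.61 and 0.33 TPM, Optc, Chad at 0.12 and 0.33 TPM, Kera, Podnl1 at 0.07 and 0.13 TPM, Nyx at 0.07 and 0.05 TPM, and Nepn at 0 and 0.07 TPM, replicate 1 before replicate 2.

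Most of the listed enzymes that build the chains were detected. All 6 enzymes of the tetrasaccharide linker were detected, the most abundant being B3gat3 (23.2 ± 3.35 TPM), Fam20b (21.9 ± 0.06 TPM) and B4galt7 (13.1 ± 0.41 TPM). Of the 16 chondroitin and dermatan sulfate enzymes 13 were detected, led by the polymerizing factor Chpf at 18.4 TPM in replicate 1, against 21.05 TPM in replicate 2. It was followed by the synthase Chsy1 (18.5 ± 0.28 TPM) and by Chst14 (18.3 ± 2.39 TPM), the sulfotransferase that fixes dermatan sulfate. Of 6 keratan sulfate enzymes 5 were detected, with B4galt4 at 20.4 TPM in replicate 1, against 21.3 TPM in replicate 2 and the next, B3gnt7, at 1.87 and 2.72 TPM. Chst5, a sulfotransferase able to act on keratan chains, had 0.03 TPM in replicate 1, against 0.10 TPM in replicate 2. Both tyrosine sulfotransferases were detected, Tpst2 at 30.5 TPM in replicate 1, against 34.1 TPM in replicate 2 and Tpst1 at 18.0 and 19.1 TPM. Among enzymes that averaged 100 counts or more, the interval lay below 0 for 3 of 5 linker enzymes, 3 of 13 chondroitin and dermatan enzymes, 1 of 4 keratan enzymes and 0 of 2 tyrosine sulfotransferases. It lay above 0 for 5 of the chondroitin and dermatan enzymes and for 0 of the linker, keratan and tyrosine enzymes at that count. The shares over all genes at that count were 17.4% below 0 and 19.8% above it.

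Of a list of 24 genes of collagens and fibril assembly, 21 were detected. Col3a1 had 634 TPM in replicate 1, against 781 TPM in replicate 2, Col1a1 348 and 397 TPM, and the collagen chaperone Serpinh1 288 and 309 TPM. Of the 21 genes that averaged 100 counts or more, 10 had an interval below 0 and 0 above it, with a median of -0.05. The shares over all genes at that count were 17.4% below 0 and 19.8% above it. Intervals narrow as counts rise, so the count of calls depends on abundance: Serpinh1 was among the 10 at -0.05 (-0.09 to -0.02). The list summed to 1945 TPM in replicate 1, against 2250 TPM in replicate 2. The 8 proteoglycan genes summed to 21.7% of that in replicate 1 and 21.9% in replicate 2, and both sums were lower in replicate 1 on the TPM scale.

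Other proteoglycans summed to 876 TPM in replicate 1, against 920 TPM in replicate 2 over 27 genes, 19 of them detected. The cell surface heparan sulfate proteoglycan Gpc3 alone had 428 TPM in replicate 1, against 451 TPM in replicate 2, more than Dcn in both. Next came Col18a1 (75.3 ± 3.85 TPM), a basement membrane collagen with heparan sulfate chains, and versican (Vcan, 55.6 ± 0.74 TPM), the chondroitin sulfate proteoglycan of the cushions. Dcn, Lum and Bgn each lay above Col18a1 and Vcan in both libraries. Of the 18 that averaged 100 counts or more, 8 had an interval below 0 (all genes 17.4%) and 6 above it (all genes 19.8%).

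Of a list of 24 ligands and receptors, 23 were detected. P2rx7, an ATP receptor that biglycan is known to engage, was not, with 0.65 TPM in replicate 1, against 0.82 TPM in replicate 2. The highest were the integrin chain Itgb1 (332 ± 9.78 TPM), the matricellular protein Ccn4 (47.4 ± 4.20 TPM), listed under its older symbol Wisp1, and the growth factor Tgfb2 (38.7 ± 0.48 TPM). Of 23 that averaged 100 counts or more, 5 had an interval below 0 (all genes 17.4%) and 7 above it (all genes 19.8%).

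**Figure D4:**
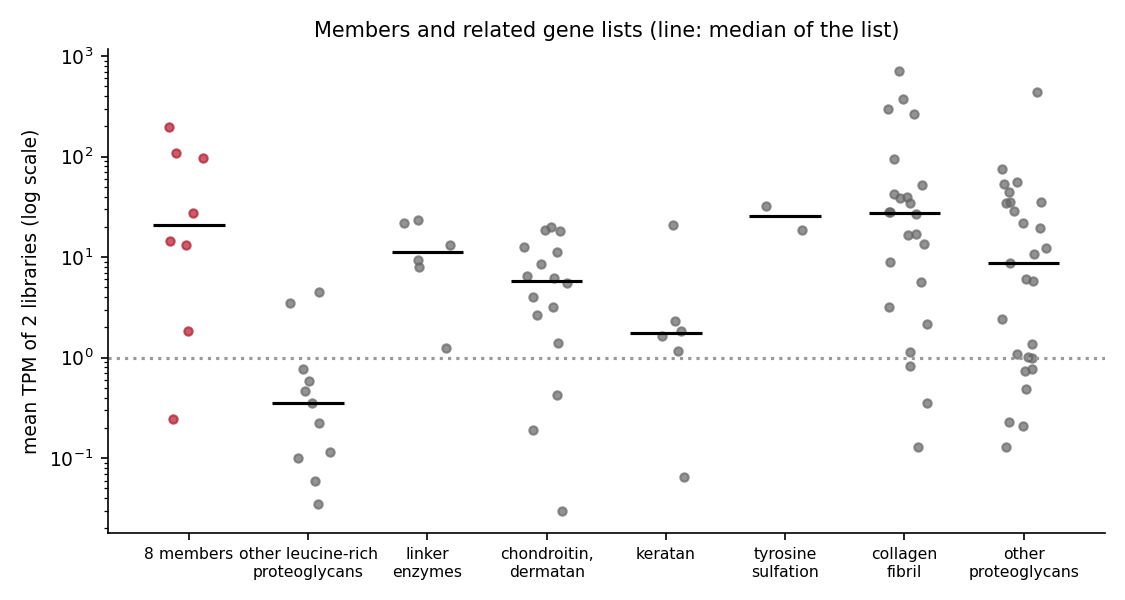
Mean TPM over the 2 libraries on a log axis (y) for each gene of the 8 members (red) and of 7 related gene lists (grey), with a line at the median of each list and a dotted line at 1 TPM. The members span from 0.245 to 197 TPM with a median of 20.9 TPM, and the other leucine-rich proteoglycans have a median of 0.355 TPM.

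The genes of the other lists nearest to each member in level were found by distance on log2(TPM + 0.01) over the 2 libraries among 209 candidates. Lum lay nearest to Fbln2, a fibulin, at 98.7 TPM in replicate 1, against 112 TPM in replicate 2, and next to Cnn1. Bgn lay nearest to Pcolce, an enhancer of collagen processing, at 93.2 and 94.3 TPM, and next to Plvap. Fmod lay nearest to Col12a1, a collagen on fibril surfaces, at 12.9 and 14.2 TPM, and next to B4galt7. Ogn had Loxl2 and Sdc4, Aspn had Pdgfrb and Kcnj8, and Prelp had Alpl and Klf1. For Dcn the nearest, Eln and Gsn, were at distances of 0.50 and 0.56, and for Omd they were Chad at 0.16 and Runx2 at 0.60. With 2 values per gene this measures a like level in these hearts.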

How the data were processed

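Total RNA-seq of 2 E14.5 mouse hearts was used, 1 gene table and 1 transcript table per library. The labels' protocols name mirVana extraction and a Smart-seq document, and the list deposited with each sample names mm10 and annotation M4. For the aligner, the quantification tool and the use of strand, nothing is given in the sources used here. The deposited tables hold expected counts, not scaled by depth, and the authors' TPM over all rows, spike-ins included, per the file headers and values. The deposited FPKM and posterior means served as alternatives. The deposited percent of a gene's TPM per transcript was recomputed from TPM. Names and positions of genes were taken from GENCODE M21 (GRCm38), matched by identifier without version, and 42462 of 43346 gene rows had a symbol. A further 26345 rows (spike-ins, numbered rows and phiX) were no genes and entered no scaling but the spike-in one.

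Expected counts were rounded for edgeR 4.0.16 (R 4.3.3), which gave TMM factors after filterByExpr and the coefficient of variation. Scaling and intervals were tested on simulated data. DESeq2 1.42.0 gave size factors as an alternative. Intervals at 95% used scipy 1.17.1, and protein alignments Biopython 1.88. Depth was 2.85e+07 and 2.90e+07 expected counts. No test between conditions was possible. The members, the 19 gene lists and the rules were chosen with earlier results of these data known, and lists share genes. Named genes were the members, relatives, neighbours within 250 kb, the 3 of highest mean TPM per list and the 2 nearest in level. Others (marker genes such as Pdgfra, Runx2, Sp7, Epor and Myh11, and the lowest enzymes and receptors) were chosen after their values were seen. Of 232 list places 231 matched, 1 of them (Wisp1, now Ccn4) through an older symbol in RefSeq, and Muc16 did not. Sequences came from GENCODE M21 transcripts.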

Additional observations from a re-analysis of the deposited data

How the results depend on the processing

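Of the values recomputed under other settings, 171 were labelled as kept and 12 as moved. For levels, shares and ratios the margin was the SD over the 2 libraries. For differences between libraries it was that of the counting interval, which covers counting error only. Summary values were kept where their direction held. Leaving out 1 of 2 libraries always moves a mean by less than their SD. Those settings could not be labelled as moved, so the 171 is no measure of robustness. None of the recomputed log2 values changed sign, but Aspn and Fmod changed places in the order of levels when counts were used without length scaling. With scaling by the spike-in total in place of TMM, 0 members had an interval above 0, against 2 (Aspn and Prelp), and 5 had one below 0, against 4; the cause was not tested. The other scalings (TMM without a filter on low counts, DESeq2 size factors, total count) kept 2 above 0. Below 0 there were 4 with TMM without a filter and with DESeq2 size factors, but 5 with total count, as with the spike-in total. The number detected was 8 at a TPM of at least 0.1 and 6 at a TPM of at least 10, and it was 7 without either replicate. Without length scaling the log2 ratio of Lum to Fmod was 2.41 (3.03 by TPM) and that of Dcn to Bgn 0.75 (1.04 by TPM). The coefficient of variation was 10.5% without a filter on low counts, against 8.83%. No paired analysis was possible because there is 1 group. Depth limits Omd, at 4 and 11 counts, and Prelp, at 156.42 and 118, and 2 libraries cannot separate embryo, collection day and library preparation.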

Other observations

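Genes of the valve and tendon list, a further place where these proteoglycans are known, were detected for 11 of 14. Postn (periostin) had 261 TPM in replicate 1, against 251 TPM in replicate 2. Tbx20 had 53.1 TPM in replicate 1, against 62.4 TPM in replicate 2, and Thbs4 had 28.7 TPM in replicate 1, against 28.1 TPM in replicate 2. Postn and Tbx20 are also on the fibroblast list, and their levels in a whole heart do not single out valve cells. Scx, a transcription factor of tendon and valve, had 5.99 TPM in replicate 1, against 7.11 TPM in replicate 2. The tendon genes Mkx (0.31 TPM in each library) and Tnmd (0.04 TPM in replicate 1, against 0.15 TPM in replicate 2) and the cartilage gene Cilp (0.02 TPM in each library) were not detected.

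Of 6 skin and cornea genes 2 were detected, Krt10 at 3.93 TPM in replicate 1, against 4.50 TPM in replicate 2, and Krt14 at 1.20 and 1.46 TPM. Krt12, a keratin of the cornea, had 0 counts in both. Smooth muscle and mural genes were detected for 9 of 10, led by Acta2 (1032 ± 42.0 TPM), Des (282 ± 13.2 TPM) and Eln (173 ± 61.2 TPM). The gene not detected was Myh11, with 0.43 TPM in replicate 1, against 1.39 TPM in replicate 2. Which cells of the heart gave these levels was not tested. All 10 endothelial genes were detected, led by Egfl7 (132 ± 8.99 TPM).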
